A study of Rattus norvegicus with 16 samples.

Results

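The solute carriers of rat skeletal muscle were followed through the 24 membrane probes whose current gene symbol begins with Slc and a digit, out of 1176 probes tested, which carried 1096 named genes. Each of the 24 probes stood for a different gene, and the rule used gene symbols alone. By substrate, 3 genes belonged to the monocarboxylate class, 3 to the amino acid class, 1 to the glucose class, 8 to the ion class, 3 to the neurotransmitter class, 1 to the mitochondrial class and 5 to other substrates. The tissue was the EDL, or extensor digitorum longus, which lifts the toes and is built mostly of fast-twitch fibres, taken from Brown-Norway rats aged 6 months. The 8 control arrays held innervated EDL and the 8 denervated arrays held EDL left without a nerve supply for 2 months. Rats carried the numbers 1 to 8 in both groups, and each array was taken as 1 rat. The labels give no strain or treatment other than these, and do not say how the nerve was cut or whether a number marks the same animal in both groups.

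Solute carriers are membrane proteins that move small molecules and ions across the cell surface or an organelle membrane, by facilitated diffusion or by coupling to the gradient of another ion. In fast muscle the family is best known for the export of lactate made by glycolysis, for glucose uptake, and for carriers that move sodium, calcium and bicarbonate. Denervation ends the electrical activity that sets much of the fast-fibre expression programme, and the muscle wastes. Because whole muscle was measured, fewer cells of a type and less RNA per cell cannot be told apart.

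Values are the deposited normalised scores on a logarithmic scale whose base is not given in the sources used here, so differences are given in log units (denervated minus control) and no fold changes are printed. Levels of different probes were not compared. Each array had a lowest value shared by 22 to 206 probes, called its floor, and a level there is known only to lie at or below it. Mean values lay between 8.19 and 8.31 on 15 arrays and at 6.63 on that of control rat 6. That array was the lowest control for 14 of the 24 solute carriers, against 62.9% of all tested probes. A change was called at an adjusted p under 0.05 (limma, Benjamini-Hochberg over the 1176 probes). By this rule 74 probes, 6.29%, were called in all, with 5.44% higher and 0.85% lower in denervated muscle. The count of 74 fell to 49, 45 and 48 without control rats 5, 7 and 8, and to 43 and 46 without denervated rats 1 and 6. The median difference over all tested probes was 0.22, or 0.03 without control rat 6, 0.01 after centring each array on its median and -0.01 after quantile normalisation. Of 20 fast-fibre and muscle markers listed, 6 were on the membrane, with Ckm, the muscle creatine kinase, at 13.01 ± 1.88 in control and 13.72 ± 0.71 in denervated muscle (SD, n = 8 per group).

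After 2 months of denervation 1 of the 24 solute carriers was called in limma. This was Slc16a3, the low-affinity lactate exporter of glycolytic fibres, which fell, and no solute carrier rose. The call narrowly missed the threshold by exact permutation (adjusted p = 0.0530) and in limma without denervated rat 2 (adjusted p = 0.0601), each of which called 0 of 24. The share called, 1 of 24, compares with 6.29% of all tested probes. At an unadjusted p, 2 of 24 passed, Slc16a3 and its relative Slc16a8, against 17.9% of all tested probes (2 of 24 and 17.6% by exact permutation). The groups did not overlap for 0 of the 24 genes, against 1.28% of all tested probes. Beside Slc16a3, differences of the other 23 genes ran from -1.02 to 0.79. The 95% interval of the difference lay within 1 log unit of 0 for 3 genes, Slc3a2, Slc8a1 and Slc12a2, against 10.2% of all tested probes. For the other genes a difference of 1 log unit in at least 1 direction lies within the interval, so a missing call does not show an equal level.

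**Figure D1:**
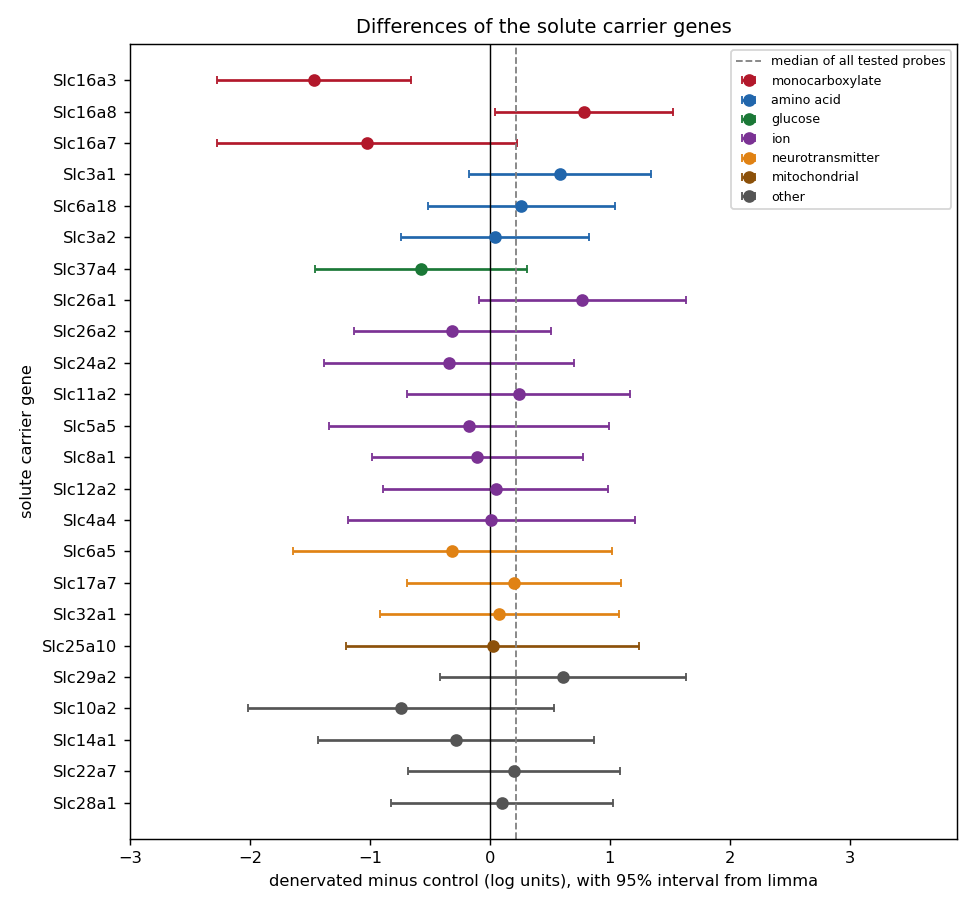
Difference between denervated and control muscle (denervated minus control, log units) for each of the 24 solute carrier genes, with limma's 95% interval. Points are coloured by substrate class and the dashed line marks the median of all tested probes, 0.22. The interval of Slc16a3, from -2.28 to -0.66, lies wholly below 0, that of Slc16a8, from 0.04 to 1.53, starts just above it, and the other 22 cross 0.

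The family's median lay below that of the membrane as a whole. The median difference over the 24 genes was 0.03, beside 0.22 for all tested probes. After centring, the medians were -0.18 and 0.01, and after quantile normalisation -0.19 and -0.01. Without control rat 6 they were -0.27 and 0.03. As deposited, 14 of 24 differences were positive, against 63.7% of all tested probes. After centring 6 of 24 were positive, against 50.3% of all tested probes. The sign of 8 small differences turned with centring, against 13.4% of all tested probes, namely those of Slc3a2, Slc12a2, Slc4a4, Slc17a7, Slc32a1, Slc25a10, Slc22a7 and Slc28a1. Leaving out control rat 6 turned 6 of these, to -0.21 for Slc3a2, -0.26 for Slc12a2, -0.28 for Slc4a4, -0.002 for Slc32a1, -0.51 for Slc25a10 and -0.15 for Slc22a7. No test of the list was made, and these medians describe it only.

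Monocarboxylate transporters of the Slc16 family carry lactate, pyruvate and ketone bodies together with a proton. The best-known muscle forms are the uptake form of oxidative fibres, which was not analysed here, and Slc16a3, the export form of glycolytic fibres. The 3 members measured did not share a direction. Slc16a3 differed by -1.47, Slc16a7 by -1.02 (-0.22 with a common floor of 6.69) and Slc16a8 by 0.79, and only the first was called. The 250 bases upstream of their annotated starts are shown because this was the sole substrate class with a called gene and its members differed in sign. Sequences are RefSeq's, assembly GRCr8, which held promoter entries for all 24 genes. The E-box core CANNTG, the motif bound by myogenin and its relatives, and the core ACGTG of the hypoxia-response element were searched on both strands, and matches are in capitals. The window of Slc16a3 (chr10:106712078-106712327, plus strand) held neither, and its GC content was 54.0%. The window of Slc16a8 (chr7:112702497-112702746, minus strand) held 1 E-box core, which begins 88 bases before the start. The window of Slc16a7 (chr7:63040399-63040648, minus strand) held 1 match to ACGTG on the opposite strand, written CACGT here, 239 bases before the start. Among all 33469 RefSeq promoter windows of the same length 65.5% held CANNTG and 16.6% held ACGTG. These are matches of letters, and nothing about a factor follows from a match or its lack.
Slc16a3: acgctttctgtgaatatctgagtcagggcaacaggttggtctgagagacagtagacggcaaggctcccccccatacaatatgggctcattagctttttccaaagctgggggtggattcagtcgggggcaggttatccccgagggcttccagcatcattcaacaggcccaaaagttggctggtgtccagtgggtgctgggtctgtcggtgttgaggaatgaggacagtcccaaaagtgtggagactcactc
Slc16a8: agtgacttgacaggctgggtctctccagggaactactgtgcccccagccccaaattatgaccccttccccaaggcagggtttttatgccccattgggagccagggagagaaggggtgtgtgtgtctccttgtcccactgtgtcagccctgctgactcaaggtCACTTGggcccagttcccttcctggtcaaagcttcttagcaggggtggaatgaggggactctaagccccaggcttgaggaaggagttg
Slc16a7: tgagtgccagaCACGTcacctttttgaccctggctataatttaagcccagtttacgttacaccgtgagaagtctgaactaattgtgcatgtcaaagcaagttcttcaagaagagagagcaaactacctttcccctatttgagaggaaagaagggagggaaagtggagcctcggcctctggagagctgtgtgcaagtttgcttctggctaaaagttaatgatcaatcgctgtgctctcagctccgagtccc

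The lactate exporter Slc16a3 (probe RA0914) was measured above the floor on all 16 arrays. Control rats 1 to 8 read 10.09, 10.24, 9.55, 9.97, 9.68, 8.63, 9.19 and 8.94. Denervated rats 1 to 8 read 8.16, 6.48, 8.01, 8.87, 6.84, 7.74, 9.17 and 9.28. Control values were gathered in the upper part of the range, and the groups overlapped because denervated rats 4, 7 and 8 reached the range of the lower controls. The mean fell from 9.54 ± 0.57 to 8.07 ± 1.03 (SD, n = 8 per group), a difference of -1.47 (SE 0.40, adjusted p = 0.0201), and the spread was wider after denervation. The low array of control rat 6 worked against this difference, which was -1.60 without it. Centring gave -1.68 (adjusted p = 0.00540) and quantile normalisation -1.63 (adjusted p = 0.00428). It was the 1 solute carrier called after either, where 4.25% and 5.27% of all tested probes were called, and with a common floor of 6.69, where 4.68% were.

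The sets of rats 1 to 4 and rats 5 to 8, which the labels do not define, gave the same sign. Values within a set are descriptive. In rats 1 to 4 the controls (9.55 to 10.24) lay wholly above the denervated arrays (6.48 to 8.87), and the difference was -2.08 (adjusted p = 0.00609). In rats 5 to 8 it was -0.85 (adjusted p = 0.324), and the difference between the sets was not tested. Slc16a3 was 1 of 24 solute carriers called in rats 1 to 4 alone, where 2.55% of all tested probes were. An exact permutation test over all 12870 ways to choose 8 of 16 arrays gave p = 0.00311 and, adjusted over all probes, p = 0.0530, so that by this test 0 of 24 solute carriers were called (2 at an unadjusted p), against 5.7% of all tested probes. The limma call was also lost without denervated rat 2, the lowest array (-1.24, adjusted p = 0.0601), and held when any other single array was left out, with adjusted p from 0.00926 to 0.0471.

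Slc16a8, the monocarboxylate transporter best known from the retinal pigment epithelium, had a positive difference that was not called over all rats. Control values had a lowest, median and highest of 7.83, 9.69 and 10.68, and denervated values 9.80, 10.24 and 10.66. The denervated arrays were tightly grouped and lay inside the upper part of the control range. The mean went from 9.44 ± 1.0 to 10.23 ± 0.31 (SD, n = 8 per group), a difference of 0.79 (SE 0.37, adjusted p = 0.241). All of the lower control values came from rats 5 to 8, which read 9.49, 8.15, 9.22 and 7.83, while control rats 1 to 4 read 9.89 to 10.68. Within rats 1 to 4 the difference was 0.18 (adjusted p = 0.876) and within rats 5 to 8 it was 1.39 (adjusted p = 0.0212). It was the sole solute carrier called in rats 5 to 8 alone, where 11.8% of all tested probes were called. The median difference over all tested probes was 0.55 in that set, which includes the low array of control rat 6. Over all rats the difference of Slc16a8 was 0.60 without control rat 6, 0.58 after centring (adjusted p = 0.406) and 0.39 after quantile normalisation (adjusted p = 0.514). Membrane probes can cross-hybridise, so relatives of this gene may add to its signal.

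Slc16a7, the high-affinity form known from neurons, read near the floor. Floor values made up 2 of its control and 4 of its denervated readings, so its levels there are upper bounds. Control values had a lowest, median and highest of 5.66, 6.30 and 7.97, and denervated values 2.75, 6.09 and 6.92. The difference was -1.02 (SE 0.62, adjusted p = 0.382), and the lowest readings, 4.08 and 2.75 in denervated rats 5 and 6, were both floor values. With all arrays set to a common floor it was -0.22, and without 1 array it ran from -1.22 to -0.62, the latter without denervated rat 6.

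Several monocarboxylate transporters reach the cell surface with a small membrane glycoprotein. Embigin, encoded by Emb, is best known in this role for Slc16a7, and basigin, the form known for Slc16a3, was not analysed here. Of 14 listed genes for partners and lactate metabolism 2 were measured, and 1 of the 2 rose, against 5.44% of all tested probes. Emb read 7.56, 10.48, 8.42, 8.80, 8.31, 4.57, 8.89 and 7.32 in control rats 1 to 8 and 11.44, 11.10, 11.26, 11.96, 10.62, 10.85, 10.43 and 10.43 in denervated rats 1 to 8. Only control rat 2 reached the denervated range. Emb rose from 8.04 ± 1.70 to 11.01 ± 0.54 (SD, n = 8 per group; adjusted p = 4.79e-06), with differences of 2.63 within rats 1 to 4 and of 3.31 within rats 5 to 8. The other gene, Ldhc, a lactate dehydrogenase known from testis, differed by 0.65 (adjusted p = 0.593), with 6 of its control values at the floor.

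**Figure D2:**
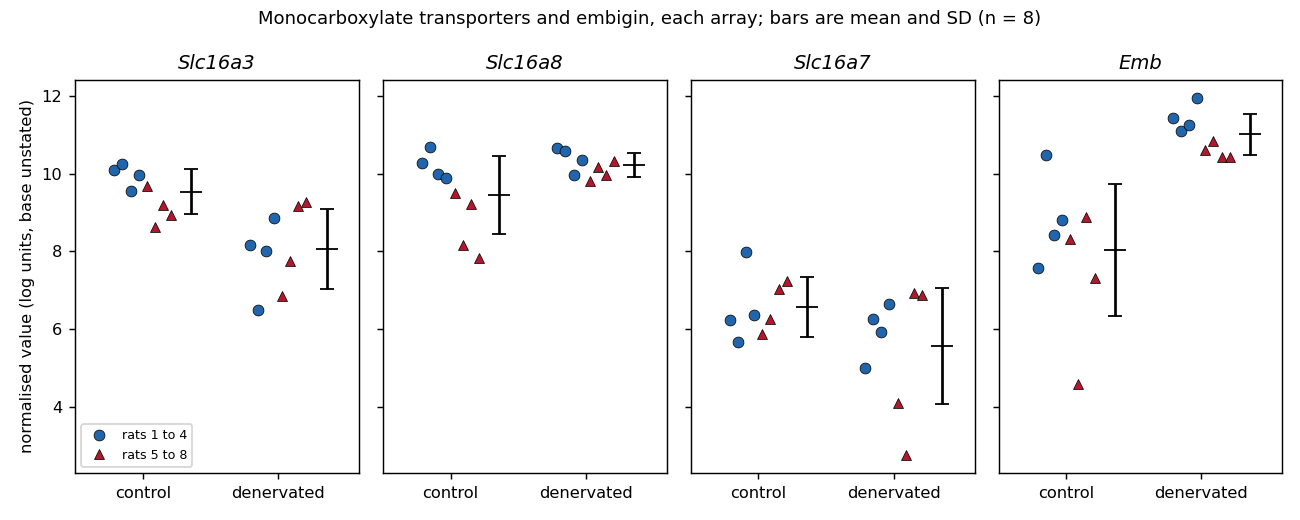
Normalised value (log units) of the 3 monocarboxylate transporters and of Emb on each of 16 arrays, with circles for rats 1 to 4, triangles for rats 5 to 8, and mean and SD beside each group (n = 8). Slc16a3 is lower and Emb higher in denervated muscle, with means of 9.54 against 8.07 and of 8.04 against 11.01. Heights are not comparable between genes.

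Markers of other cell types moved in the same arrays. Of 6 measured fibroblast and matrix markers, 4 rose, against 5.44% of all tested probes. The list was chosen with earlier results of these data known, so the count describes it only. The mean level of the 6 ran from 7.91 to 10.38 in control and from 10.56 to 11.44 in denervated arrays, with no marker at the floor. After centring, after quantile normalisation and without control rat 6, 2 of the 4 were still called, Bgn and S100a4, which encode a matrix proteoglycan and a calcium-binding protein. Dcn, another matrix proteoglycan, and Mmp12, a matrix protease, were then at adjusted p of 0.0782 and 0.0846, of 0.180 and 0.0649, and of 0.0563 and 0.0507. Mmp12 is also called macrophage elastase, so its rise is not particular to fibroblasts. Of 6 muscle markers 1 fell, against 0.85% of all tested probes. This was Mylk2, which phosphorylates the myosin light chain, at -1.87 (adjusted p = 4.18e-04). The count was also 1 after centring and without control rat 6, but 3 after quantile normalisation, where 5.27% of all tested probes were called. All 3 were then lower, Mylk2 at -2.42, Cacna1s at -0.79 (adjusted p = 0.00230) and Pgam2 at -0.93 (adjusted p = 0.0172). Tpm1 had 5 control and 4 denervated values at the floor. The mean of the 6 ran from 8.96 to 11.90 in control and from 9.84 to 10.92 in denervated arrays. Of 9 nerve and Schwann cell markers 1 was called higher, against 5.44% of all tested probes. This was Nefm, a neurofilament subunit, at 1.38 (adjusted p = 0.0318). The mean of the 9 ran from 5.50 to 7.96 in control and from 7.19 to 8.31 in denervated arrays. Nefm lost its call after centring (adjusted p = 0.126), after quantile normalisation (0.296), by exact permutation (0.125) and without control rat 6 (0.0563), and its difference was 2.61 within rats 1 to 4 beside 0.14 within rats 5 to 8. Of 4 markers of macrophages and leukocytes limma called 0, with 3 at an unadjusted p, against 17.9% of all tested probes. Their mean ran from 7.58 to 9.29 in control and from 7.88 to 9.10 in denervated arrays. Exact permutation called 1, against 5.7% of all tested probes. This was Cxcl1, which was lower, at -1.92 (adjusted p = 0.0471 by exact permutation). Floor values made up 4 of its control and 7 of its denervated readings. Cd48, C1qb and Cd8a were higher, at 1.24, 0.95 and 0.34. Of 2 adipocyte markers 1 rose, against 5.44% of all tested probes. This was Scd, a fatty acid desaturase, at 2.97 (adjusted p = 3.25e-05), with 5 of its control values at the floor. Acly differed by 0.08 (adjusted p = 0.966). The mean of the 2 ran from 4.97 to 7.83 in control and from 6.52 to 9.22 in denervated arrays. In each of these marker lists the lowest control mean was that of control rat 6, whose array was low over all probes. No blood or endothelial marker on the list was measured. The part of these cells in the solute carrier values was not tested.

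In the amino acid class 0 of 3 genes were called in limma, with 0 at an unadjusted p and 0 by exact permutation. Slc3a1, the heavy chain of the kidney transporter of cystine and basic amino acids, had control values with a lowest, median and highest of 7.5, 9.23 and 10.01, and denervated values of 8.99, 9.50 and 10.22. Control rats 6 and 7, at 7.53 and 7.5, were apart from the other controls, which began at 8.92. The difference was 0.59 (SE 0.38, adjusted p = 0.421), and 0.38 without control rat 6. Slc3a2, the heavy chain of the CD98 complex that carries large neutral amino acids into many cell types, read 9.44 ± 0.92 in control and 9.48 ± 0.81 in denervated muscle (SD, n = 8 per group). Its difference of 0.04 had a 95% interval from -0.74 to 0.82, turned to -0.17 after centring, and stood at -0.47 within rats 1 to 4 and at 0.55 within rats 5 to 8. Slc6a18, a neutral amino acid transporter of the kidney, differed by 0.26 (adjusted p = 0.787).

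The glucose class held 1 gene, Slc37a4, which carries glucose 6-phosphate into the endoplasmic reticulum, and the surface glucose transporters were not analysed here. Its control values had a lowest, median and highest of 7.70, 8.65 and 9.29, and its denervated values 5.93, 8.48 and 9.07. Denervated rats 3 and 4 were lowest, at 5.93 (the floor) and 6.97, and the remaining denervated arrays lay close to the control range. The difference was -0.57 (SE 0.44, adjusted p = 0.516), with -1.09 in rats 1 to 4 and -0.06 in rats 5 to 8. Of 17 listed genes of insulin signalling and glucose uptake 3 were measured and 0 called (0 at an unadjusted p). They were Prkag1 and Prkab1, subunits of the AMP-activated kinase, at 0.77 (adjusted p = 0.390) and 0.06 (adjusted p = 0.955), and Irs2, an insulin receptor substrate, at 0.23 (adjusted p = 0.850), which was -0.03 without control rat 6.

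Of 8 ion transporters 0 were called in limma (0 by exact permutation, 0 at an unadjusted p), and their median difference was -0.05. The sulfate transporters differed in sign. Slc26a1 had control values with a lowest, median and highest of 5.59, 8.28 and 9.06, and denervated values of 7.78, 9.0 and 9.32. Its difference of 0.77 (SE 0.43, adjusted p = 0.340) was 0.43 without control rat 6, the array at 5.59. Slc26a2, which supplies sulfate for the proteoglycans of cartilage and other matrix, read 10.41 ± 1.21 and 10.10 ± 0.66 (SD, n = 8 per group), a difference of -0.31 (adjusted p = 0.748), and -0.85 after quantile normalisation (adjusted p = 0.0528). The highest of its 16 values, 12.62, was that of control rat 1, and without that array the difference was 0.003.

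Calcium and bicarbonate exchangers of the surface membrane showed no common direction. Slc8a1, the sodium-calcium exchanger of heart and other excitable cells, differed by -0.10 (95% interval -0.98 to 0.77), and Slc24a2, a potassium-dependent form known from neurons, by -0.34 (adjusted p = 0.791). Slc4a4, the sodium-bicarbonate cotransporter, differed by 0.01 in all, which joined 0.98 in rats 1 to 4 and -0.95 in rats 5 to 8. Control rats 7 and 8 read 8.54 and 8.59 for Slc4a4, while the other controls lay between 4.64 and 7.03. For Slc24a2 the corresponding values were 0.47 and -1.15. Of the listed calcium and metal pumps 2 were measured and 0 called (0 at an unadjusted p), Atp2b3, a calcium pump of the surface membrane, at 0.60 (adjusted p = 0.395) and Atp7a, a copper pump, at 1.07 (adjusted p = 0.315), or 0.58 without control rat 6.

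The remaining ion carriers were not called either. Slc12a2, the sodium-potassium-chloride cotransporter, differed by 0.05 (95% interval -0.89 to 0.99), with -0.83 in rats 1 to 4 and 0.93 in rats 5 to 8. Slc11a2, which takes up iron and other divalent metals, differed by 0.24 (adjusted p = 0.850), and its control SD of 0.48 was the smallest among the 24 genes. Its lowest control value, 6.69 in rat 3, was that array's floor, so this SD may be too small. Slc5a5, the iodide transporter of the thyroid, differed by -0.17 (adjusted p = 0.924).

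Neurotransmitter carriers are textbook markers of nerve endings rather than of muscle, and 0 of 3 were called (0 by exact permutation, 0 at an unadjusted p). Slc6a5, the glycine transporter of inhibitory neurons, had control values with a lowest, median and highest of 5.51, 6.85 and 8.43, and denervated values of 2.97, 6.53 and 8.95. It had the widest denervated spread of the 24 genes (SD 2.14, n = 8), with rats 4 and 6 at 8.91 and 8.95 and rats 7 and 8 at 2.97 and 4.23, and differed by -0.31 (SE 0.66, adjusted p = 0.863). The value of rat 7 is that array's floor. The difference was 0.31 with a common floor, 0.27 after quantile normalisation and 0.19 without denervated rat 7, so its sign is not settled. Slc17a7 and Slc32a1, which load glutamate and GABA or glycine into synaptic vesicles, differed by 0.20 (adjusted p = 0.869) and 0.08 (adjusted p = 0.960). Of 8 listed enzymes of glutamate, GABA and glutamine 3 were measured and 0 called (0 at an unadjusted p), with Glud1, the mitochondrial glutamate dehydrogenase, at -0.73 (adjusted p = 0.403), the transaminase Got1 at 0.34 and the glutamine synthetase Glul at -0.24.

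The single mitochondrial carrier was Slc25a10, which exchanges dicarboxylates for phosphate across the inner membrane. Its control values had a lowest, median and highest of 3.27, 7.71 and 8.35, and its denervated values 5.20, 7.39 and 8.08. The lowest control was rat 6, at the floor, and gave the gene the widest control spread of the 24 (SD 1.76, n = 8). The difference was 0.02 (adjusted p = 0.990) with that array and -0.51 (adjusted p = 0.664) without it.

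Among the 5 carriers of other substrates 0 were called (0 by exact permutation, 0 at an unadjusted p). Slc29a2, a nucleoside transporter, had control values with a lowest, median and highest of 5.08, 7.37 and 8.5, and denervated values of 7.06, 7.77 and 8.63. Its difference of 0.61 (SE 0.51, adjusted p = 0.549) was 0.32 without control rat 6. Slc10a2, the bile acid transporter of the ileum, differed by -0.74 (adjusted p = 0.567), which was -0.28 without denervated rat 7, a floor value, and -1.14 without control rat 6. Slc14a1, a urea transporter, differed by -0.28, Slc22a7, an organic anion transporter of liver and kidney, by 0.20, and Slc28a1, a sodium-coupled nucleoside transporter, by 0.10. Of the Slc14a1 readings, 3 in control and 2 in denervated muscle were floor values. Outside the family, 2 of 38 listed ABC transporters, organic anion transporters and aquaporins were measured, and 0 were called. At an unadjusted p 1 passed, against 17.9% of all tested probes. Abcd3, a peroxisomal fatty acid transporter, stood at 0.80 (adjusted p = 0.219) and Abcb6 at -0.04. None of the listed sodium-potassium pump genes was measured.

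**Figure D3:**
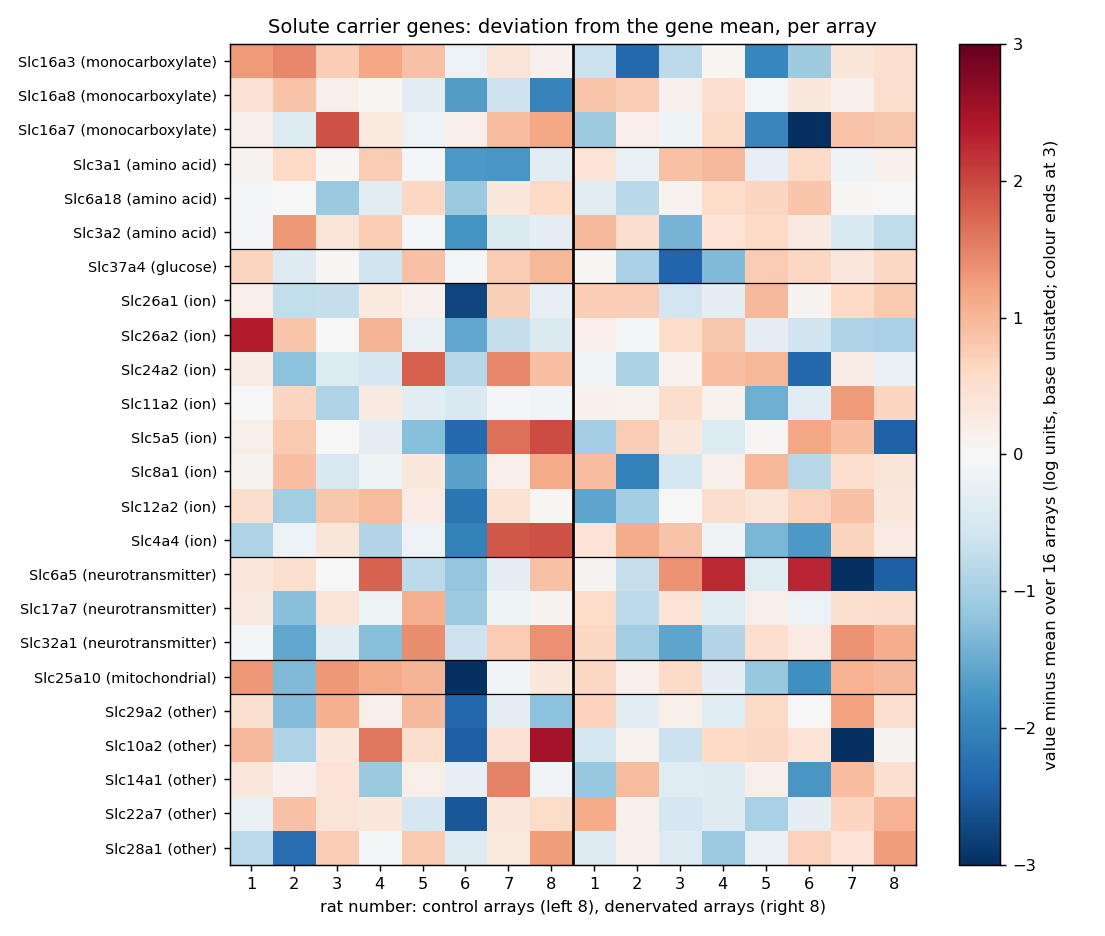
Deviation of each solute carrier gene from its own mean over 16 arrays (log units, red above and blue below the mean), with genes in rows by substrate class and rats 1 to 8 of each group in columns. The column of control rat 6 is mostly blue, being the lowest control for 14 of 24 genes, and the top row, Slc16a3, passes from red in the controls to mostly blue in the denervated arrays.

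Spread between rats was of a similar size for solute carriers and other probes. The median SD over the 24 genes was 1.04 in control and 0.92 in denervated muscle, beside 0.99 and 0.77 over all tested probes. In 7 of 24 genes, Slc16a3 among them, the SD was larger in denervated muscle, against 29.3% of all tested probes. At least 1 array was at the floor for 10 of the 24 genes, against 46.1% of all tested probes. Over all tested probes the sets of rats 1 to 4 and rats 5 to 8 also stood apart. The labels name no batch and give no cut between rats 4 and 5, so the adjusted p-values within a set are descriptive. In control muscle the values of rats 5 to 8 all lay below those of rats 1 to 4 for 4 genes, Slc16a8, Slc3a1, Slc3a2 and Slc26a2, against 12.3% of all tested probes. The sign of the difference was opposite in the sets for 10 of 24 genes, against 42.2% of all tested probes. The median difference over the 24 genes stood at -0.13 in the first set and at 0.16 in the second, beside -0.03 and 0.55 over all tested probes. Differences between the sets were not tested.

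**Figure D4:**
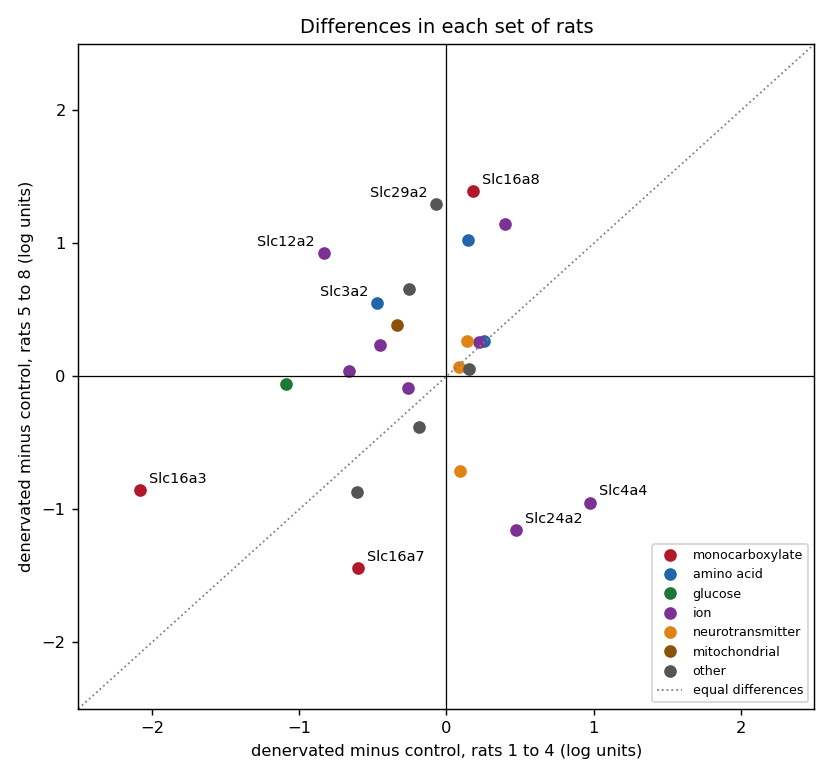
Difference between denervated and control muscle in rats 1 to 4 (horizontal axis) against that in rats 5 to 8 (vertical axis), in log units, for the 24 solute carrier genes, coloured by substrate class. Slc16a3 lies below 0 in both sets, at -2.08 and -0.85, while Slc4a4, Slc24a2 and Slc12a2 have opposite signs in the sets.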

How the data were processed

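Labelled cDNA from 16 EDL samples, 8 per group, was measured on Rat Atlas membranes of Clontech by phosphorimaging. Spots were quantified in Array Vision, and arrays were normalised by linear regression, per the labels. Judged by the range of its values, the deposited score is logarithmic. Which base and which background correction were used is not given in the sources used here. Of 1185 probes, 9 reference probes on another scale were left out, and a filter for values above 0 on 8 or more arrays kept all other 1176. The platform table paired 1106 of these with 1 gene, 2 with several and 68 with none, and symbols were updated through RefSeq. All 24 members matched.

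Values were used as deposited. The test was two-sided, by lmFit and eBayes with trend (limma 3.58.1, R 4.3.3), adjusted over all 1176 probes. Every adjusted p is from limma except where exact permutation (two-sided, smallest possible p 0.000155) is named. Members and lists were chosen with earlier results of these data known. Values are given in full, or as lowest, median and highest, for members with an unadjusted p under 0.05 and the lowest-p member of each class; from each list the called genes and the 3 of lowest p are named, except in marker lists. Replicates may share preparation, which the labels do not state, and the p-values then measure only the spread between these arrays. The highest share of identical values between any pair of arrays was 0.085%. The number of arrays limits the precision. On simulated data with 200 of 1176 probes changed, for 8 against 8 arrays, limma called 24.0% of those shifted by 1 log unit and 82.0% of those shifted by 2, and 8.62% of its 116 calls were false. Alternatives tried were centring, quantile normalisation, filters, a common floor, reference probes kept, rat number or set of rats as a block, each set alone, robust variance, array weights, exact permutation and each array left out. Figures were drawn with matplotlib 3.10.9.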

Additional observations from a re-analysis of the deposited data

Results flagged for a closer look

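In 3 of the 48 groups of 8 values (24 genes in 2 groups), 1 array stood far from the rest, with a gap to its neighbour larger than 0.526 of the group's range. Chance gives about 1 such array in 20 groups. For Slc26a1 control rat 6 read 5.59 and the next control 7.61, a gap of 0.583 of the range. For Slc22a7 control rat 6 read 5.81 and the next control 7.84, a gap of 0.594. Both fall on the array that was low over all probes. For Slc10a2 denervated rat 7 read 2.97, that array's floor, and the next 5.93, also a floor value, a gap of 0.699.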

How the results depend on the processing

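The number of solute carriers called stayed at 1 under every alternative except exact permutation and the fit without denervated rat 2, which gave 0; leaving out 1 array at a time gave 0 to 1. The called gene was Slc16a3 in each of these fits other than rats 5 to 8 alone, where it was Slc16a8. Differences of Slc16a3 ran from -1.64 to -1.24 without 1 array. With a common floor of 6.69 its adjusted p was 0.0424. No called value changed sign. Small differences did, 6 of 24 with a common floor, 8 after quantile normalisation and 5 with array weights. The number of probes called was 30 in rats 1 to 4, 139 in rats 5 to 8, 131 with the sets as a block and 43 to 98 without 1 array. With rat number as a replicate block it was 113, and Slc16a3 stood at an adjusted p of 0.00335. Deviations of same-numbered arrays correlated between 0.06 and 0.19. Of 8 pairs 7 were above 0.1 and rat 8, at 0.06, was not. These values do not settle whether a number marks the same animal, and the main fit used no pairing. Of 8 arrays a group, 2 control and 3 denervated arrays correlated best with their own number. No filter, the floor filter, reference probes kept and robust variance changed no call among the 24 genes, nor did counting genes by their brightest probe. No counts lie behind the values, so no counting error could be set.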
